A study of Mus musculus with 8 samples.

Results

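Marker genes of liver macrophages were read from whole-liver RNA sequencing of mice on a high fat diet. The list held 36 genes chosen by name for their cell type, of which 35 matched a gene of the deposited table and 1 name, Slc40a1-na, was not analysed here. The 35 fall into 7 genes of resident Kupffer cells, 13 general macrophage genes, 7 genes of recruited monocytes and dendritic cells, and 8 genes of lipid-associated macrophages and lysosomes. All 35 passed the filter on low counts, among 14036 genes tested of 35976 in the table. The 5 control livers are labelled CTRL, with WT in their titles, and the 3 others OPA1_LKO, in which Opa1, the gene of the inner mitochondrial membrane fusion GTPase, was deleted in hepatocytes. Both groups were fed a high fat diet, so no lean liver is available for comparison. The sources used here do not give the Cre driver, the deleted exons, sex, age, strain, length of the diet or any batch. They also do not say whether each library came from a separate animal, so p-values measure the spread between these libraries, which may be technical.

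Kupffer cells are the macrophages that live in the liver sinusoids, where they clear particles, bacteria, old red cells and complement-coated debris from portal blood. They renew themselves in the healthy liver under the growth factors CSF1 and IL34 and signals from endothelial and stellate cells. In fatty liver, long-lived TIM4-positive Kupffer cells can be lost and replaced by monocytes that arrive through CCR2, and some of the newcomers become lipid-associated macrophages, which carry TREM2, GPNMB, CD9 and CD63 and gather around fat and scar. Several of the lipid-associated genes encode lysosomal or membrane proteins that hepatocytes, bile duct cells or stellate cells also make.

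The starts of 5 members on which the results turn are shown first, 3 lipid-associated genes and 2 resident genes. Each window is the 250 bases before a transcription start in the RefSeq promoter table (build GRCm38.p6, the assembly behind mm10), 5′ to 3′ on the plus strand, with capitals marking a match to GAGGAAG, the core bound by the macrophage factor PU.1, read here as CTTCCTC on the opposite strand. They lie at chr6:49036268-49036517 (Gpnmb), chr17:48346151-48346400 (Trem2), chr10:128909095-128909344 (Cd63), chr3:87357631-87357880 (Cd5l) and chr11:46810549-46810798 (Timd4). In the GENCODE annotation of this build the Cd63 window lies inside the Cd63 gene but in none of its exons, and the other 4 windows overlap no GENCODE gene. The RefSeq gene table puts the start of Timd4 at 46810786, so the last bases of its window lie inside the gene by that table.
Gpnmb: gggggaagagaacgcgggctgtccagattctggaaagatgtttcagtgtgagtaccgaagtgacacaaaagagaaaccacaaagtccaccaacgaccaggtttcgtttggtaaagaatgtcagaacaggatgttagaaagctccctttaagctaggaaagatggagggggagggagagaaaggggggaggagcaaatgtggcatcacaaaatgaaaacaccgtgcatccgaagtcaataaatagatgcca
Trem2: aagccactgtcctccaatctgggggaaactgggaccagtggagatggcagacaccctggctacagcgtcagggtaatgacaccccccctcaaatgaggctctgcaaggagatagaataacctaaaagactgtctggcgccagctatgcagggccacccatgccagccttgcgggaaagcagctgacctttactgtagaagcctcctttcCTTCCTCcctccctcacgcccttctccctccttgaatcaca
Cd63: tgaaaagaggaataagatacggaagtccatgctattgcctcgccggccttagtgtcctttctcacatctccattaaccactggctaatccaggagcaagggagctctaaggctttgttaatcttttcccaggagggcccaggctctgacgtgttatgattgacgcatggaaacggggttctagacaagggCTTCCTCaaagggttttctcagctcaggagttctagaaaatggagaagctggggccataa
Cd5l: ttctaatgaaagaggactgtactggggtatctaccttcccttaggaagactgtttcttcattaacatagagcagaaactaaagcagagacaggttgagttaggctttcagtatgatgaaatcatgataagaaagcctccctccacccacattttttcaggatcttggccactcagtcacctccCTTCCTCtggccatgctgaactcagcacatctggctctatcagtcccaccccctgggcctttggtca
Timd4: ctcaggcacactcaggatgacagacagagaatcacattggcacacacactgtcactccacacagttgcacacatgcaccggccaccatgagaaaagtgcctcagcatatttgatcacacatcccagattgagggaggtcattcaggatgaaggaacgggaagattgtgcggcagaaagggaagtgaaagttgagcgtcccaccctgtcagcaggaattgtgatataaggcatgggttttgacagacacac

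Of these 5 windows, those of Trem2, Cd63 and Cd5l held the PU.1 letters and those of Gpnmb and Timd4 did not. Among the 26 members with a RefSeq window, 8 (30.8%) held GAGGAAG on either strand, and 12.0% of the windows of 27025 genes did. The 8 were Cd5l, Marco, C1qc, Mrc1, Itgam, Ly6c2, Trem2 and Cd63, which come from all 4 groups. TCACGTG, the core read by the lysosomal factors of the MITF and TFE family, was found in 1 of 26 windows (3.85%), that of Ctsd, and in 3.58% of all windows. The 2 motifs do not overlap in sequence, and a match describes letters, not binding.

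Library totals ran from 16076404 to 20471271 estimated counts. Opa1 levels (CPM, counts scaled to a fixed library total) averaged 48.1 ± 6.90 over the CTRL libraries (SD, n = 5) and 31.0 ± 5.52 over the OPA1_LKO libraries (SD, n = 3), with no overlap between groups and an adjusted p of 0.0539 (edgeR quasi-likelihood test with Benjamini-Hochberg adjustment). CTRL replicate 1 stood apart from every other library. Its Apoe, the apolipoprotein of remnant particles made by hepatocytes and macrophages, was at 134 CPM against 20759 to 33179 CPM elsewhere, and its Xist, chosen after its values were seen, at 8.13 CPM against at most 0.185 CPM. The Y-linked Ddx3y was nevertheless present in that library at 7.91 CPM and in the others at 10.9 to 26.9 CPM. CTRL replicate 1 also had the highest sum over the 35 members, 3528 CPM where the other libraries had 1210 to 1773 CPM. The 13 general macrophage genes summed to 1185 CPM in CTRL replicate 1 and to 240 to 510 CPM elsewhere. Results are therefore given with and without this library. The labels do not account for these values, and whether the library labelled CTRL replicate 1 is a control like the other 4 was not tested. Every CTRL mean over 5 libraries includes it.

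The macrophage genes varied widely between the control livers. CTRL replicate 1 was the highest of the 8 libraries for 29 of 35 members (82.9%), a place it held for 13.5% of all genes tested. Relative to the median of the other 4 CTRL libraries its members stood at a median of 3.64-fold, from 0.271-fold for Cd163 to 19.9-fold for Gpnmb. A ratio above 2 was seen in 29 members and in 10.7% of all genes. The median coefficient of variation of the members was 74.7% over the 5 CTRL libraries and 38.5% without replicate 1, compared with 23.2% over the 3 OPA1_LKO libraries. For all genes these medians were 21.1%, 19.3% and 16.5%. At the other end, CTRL replicate 4 was the lowest library for 14 of the 35 members.

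**Figure D1:**
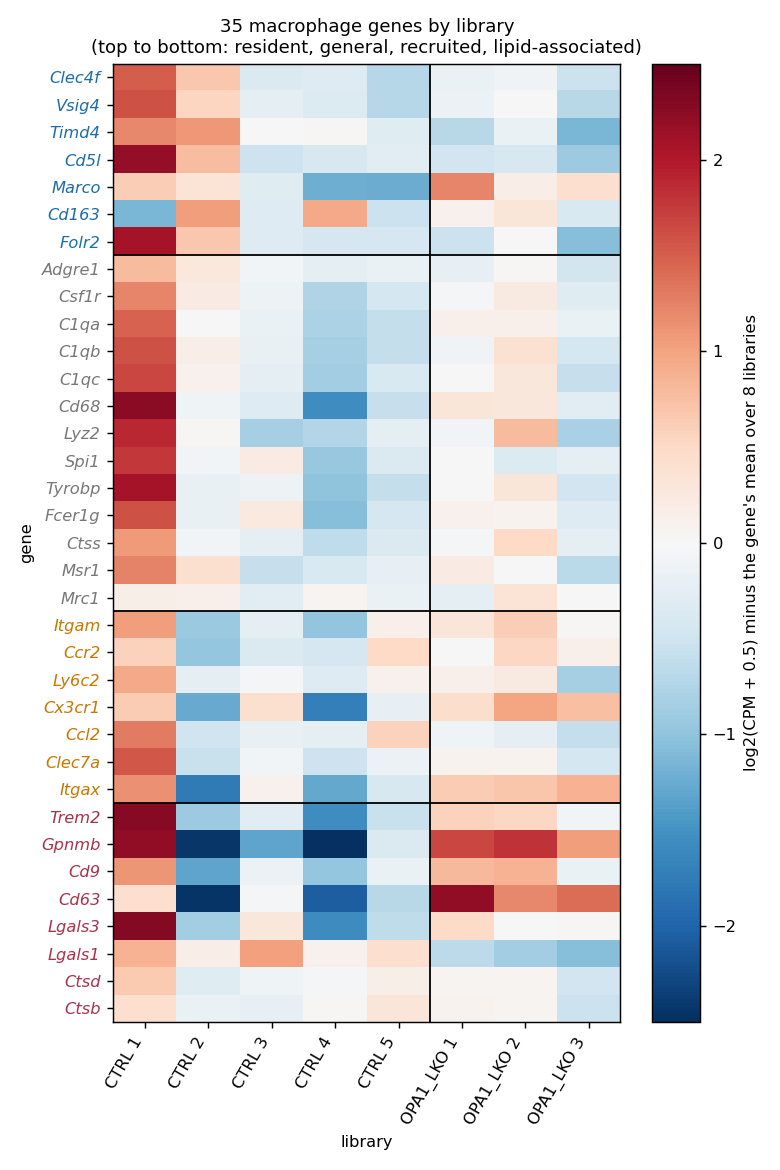
Heat map of the 35 members (rows, in their 4 groups) in the 8 libraries (columns), coloured by log2(CPM + 0.5) minus the gene's mean over libraries, red for higher and blue for lower. The column of CTRL replicate 1 is red in nearly all rows other than Cd163. In the 3 OPA1_LKO columns Gpnmb and Cd63 are red and Lgals1 is blue.

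On the TPM scale, which corrects transcript abundance for length, the members spanned 3 orders of magnitude. The lysosomal proteases led, with Ctsb at a mean of 383 TPM over the 8 libraries and Ctsd at 178 TPM, followed by Lgals1 at 157 TPM and the complement gene C1qa at 88.4 TPM. Clec4f, a lectin that marks Kupffer cells in mice, was at 43.9 TPM and ranged from 21.2 to 123 TPM, and Cd5l at 60.6 TPM ranged from 21.97 to 231 TPM. Among the scarcest were the recruited-cell genes Ccr2 at 1.10 TPM and Cx3cr1 at 1.27 TPM and the resident gene Cd163 at 1.15 TPM, and Itgam was lowest of all at 0.376 TPM. The order of Ccr2, Cx3cr1 and Itgam is loose, since their ranges over libraries overlapped, at 0.46 to 1.83, 0.17 to 2.42 and 0.08 to 0.90 TPM. By the deposited transcript values, 23 members had 1 transcript above a mean of 1 TPM, 9 had more than 1 and 3 had none. Clec4f, Vsig4, Csf1r and the C1q genes were detected in every library, with at least 289 counts each.

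Against Opa1 deletion, 1 of the 35 members was higher and 1 was lower. Cd63, a tetraspanin of late endosomes and lysosomes, was higher in OPA1_LKO, and Lgals1, which encodes the secreted lectin galectin-1, was lower. The threshold was an adjusted p under 0.05 in edgeR's quasi-likelihood test, fitted over all genes. Of all genes tested 3.34% were called higher and 2.69% lower, 6.03% in all, so the members' share of 2 in 35 is near the background. An unadjusted p under 0.05 was seen in 3337 of the 14036 genes and in 3 of the 35 members. On scales that centre the data differently the balance of all calls moved, from 469 higher and 377 lower here to 547 and 270 with upper-quartile factors and 504 and 107 with limma on log2(TPM + 1). Of the 35 members 10 had a positive and 25 a negative log2 fold change, with a median of -0.34 where all genes had -0.03. With limma on log2(TPM + 1) 23 were positive and the members' median was 0.081, while the median of all genes shifted by 0.13. Upper-quartile factors shifted it by 0.083 and left 10 positive. The limma fit compares means of logs, in which 1 high library weighs less, and what turned the signs was not tested. Without CTRL replicate 1, 24 were positive in edgeR and the members' median was 0.25, so the direction of the list as a whole hangs on that library and on the fit.

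Cd63 (chromosome 10, 128896231 to 128912822, GRCm38.p6) stood at 44.7, 5.67, 32.6, 7.55 and 20.3 CPM in CTRL replicates 1 to 5 and at 157, 76.8 and 88.6 CPM in OPA1_LKO replicates 1 to 3. The lowest OPA1_LKO library was above the highest CTRL library. The log2 fold change was 2.28 ± 0.58 (SE), adjusted p = 0.0470 by edgeR, a mean of 108 ± 43.4 CPM (SD, n = 3) against 22.2 ± 16.6 CPM (SD, n = 5). The call is a narrow one. It held without CTRL replicate 1 (log2 2.70, adjusted p = 0.0131) but not without any one of the other 7 libraries, where the edgeR adjusted p was 0.0654, 0.0552, 0.0761 and 0.107 without CTRL replicates 2 to 5 and 0.204, 0.0672 and 0.114 without OPA1_LKO replicates 1 to 3. With upper-quartile factors it was 0.0507. A single transcript carried 99.4% of Cd63 TPM.

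Lgals1 (chromosome 15, 78926725 to 78930465) was at 156, 95.9, 174, 91.6 and 115 CPM in the CTRL libraries and 54.1, 46.8 and 40.8 CPM in those of OPA1_LKO. Every OPA1_LKO library was below every CTRL library, and the OPA1_LKO values lay close together. The log2 fold change was -1.42 ± 0.24 (SE) and the adjusted p 0.0118 by edgeR, and the call was lost only without OPA1_LKO replicate 3 (adjusted p = 0.0648) among the fits that left out 1 library. Cd63 and Lgals1 were also the only members whose groups did not overlap in CPM. Of all genes tested 16.4% were separated in one direction or the other.

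**Figure D2:**
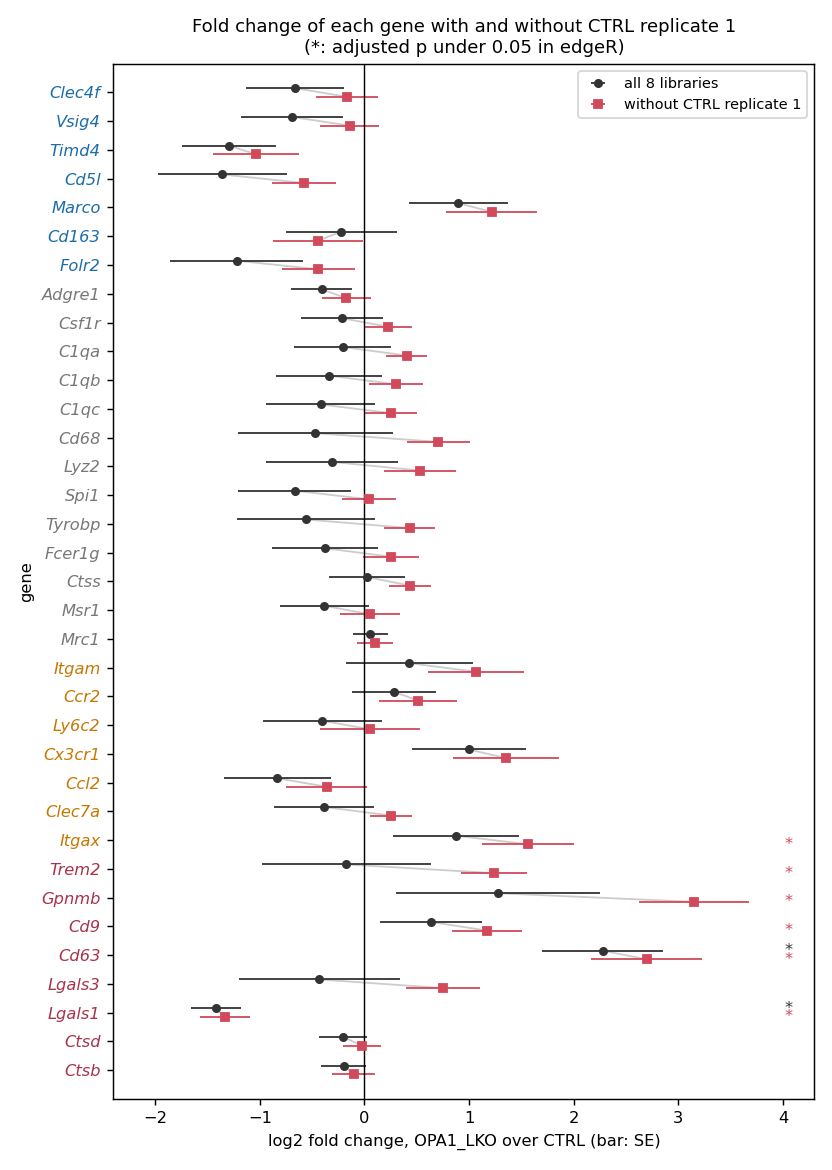
Log2 fold change of OPA1_LKO over CTRL for each of the 35 members (rows), with SE bars, from all 8 libraries (black circles) and without CTRL replicate 1 (red squares), and asterisks for an adjusted p under 0.05. The red squares lie to the right of the black circles for most genes, most of all for Gpnmb, which moves from 1.27 to 3.15, while Cd63 and Lgals1 carry asterisks in both.

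None of the 7 resident genes passed the edgeR test, with 1 of them under an unadjusted p of 0.05, and 6 of the 7 had a negative fold change, or 5 on the TPM scale. DESeq2 called 1, Timd4. Clec4f (chromosome 6, 83644542 to 83656116) was at 220, 123, 59.9, 61.0 and 46.6 CPM in the CTRL libraries and 68.4, 72.5 and 52.9 CPM in those of OPA1_LKO. The fitted log2 difference was -0.66 ± 0.47 (SE). The OPA1_LKO values fell within the range of the controls, and without CTRL replicate 1 the fold change was -0.17. Vsig4, the receptor through which Kupffer cells catch C3b-coated particles, behaved likewise, at 85.8, 41.0, 23.9, 22.0 and 16.8 CPM in CTRL and 25.3, 27.9 and 17.1 CPM in OPA1_LKO, where all 3 values lay inside the CTRL range.

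Timd4 (chromosome 11, 46810786 to 46844333) encodes TIM4, the phosphatidylserine receptor by which long-resident Kupffer cells bind dying cells. It stood at 10.3, 9.44, 4.14, 4.25 and 3.27 CPM in the CTRL libraries and 2.40, 3.64 and 1.60 CPM in those of OPA1_LKO, so that only OPA1_LKO replicate 2 exceeded the lowest control. Its log2 fold change, -1.29 ± 0.45 (SE), had an edgeR adjusted p of 0.118, not past the threshold, and -1.04 without CTRL replicate 1 (adjusted p = 0.121). DESeq2 gave an adjusted p of 0.0434, in a fit that called 6.06% of all genes lower. Timd4 had a negative fold change in all 14 alternatives run.

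Cd5l, a secreted scavenger protein of tissue macrophages also called AIM, was at 346, 129, 52.7, 57.1 and 62.4 CPM in CTRL and 54.2, 57.1 and 40.2 CPM in OPA1_LKO. CTRL replicate 1 and, less so, replicate 2 were high and the other 3 controls lay near the OPA1_LKO libraries. The log2 fold change of -1.36 ± 0.62 (SE) did not pass (adjusted p = 0.214, edgeR) and was -0.58 without CTRL replicate 1. Folr2, the folate receptor beta of resident macrophages, showed the same arrangement, from 6.53 to 39.7 CPM in CTRL and from 4.02 to 9.04 CPM in OPA1_LKO. Cd163, which takes up haemoglobin bound to haptoglobin, was the one resident gene that CTRL replicate 1 held lowest, at 1.49 CPM where the other controls had 2.52 to 8.60 CPM and 2.90 to 4.90 CPM in OPA1_LKO.

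Marco, a class A scavenger receptor for bacteria and particles, was the resident gene with a positive fold change. Its values were 8.34, 6.80, 4.19, 1.99 and 1.95 CPM in CTRL and 12.9, 5.94 and 7.28 CPM in OPA1_LKO. The groups overlapped, and the log2 fold change was 0.90 ± 0.47 (SE), adjusted p = 0.282 by edgeR, and 1.21 without CTRL replicate 1 (adjusted p = 0.0948).

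**Figure D3:**
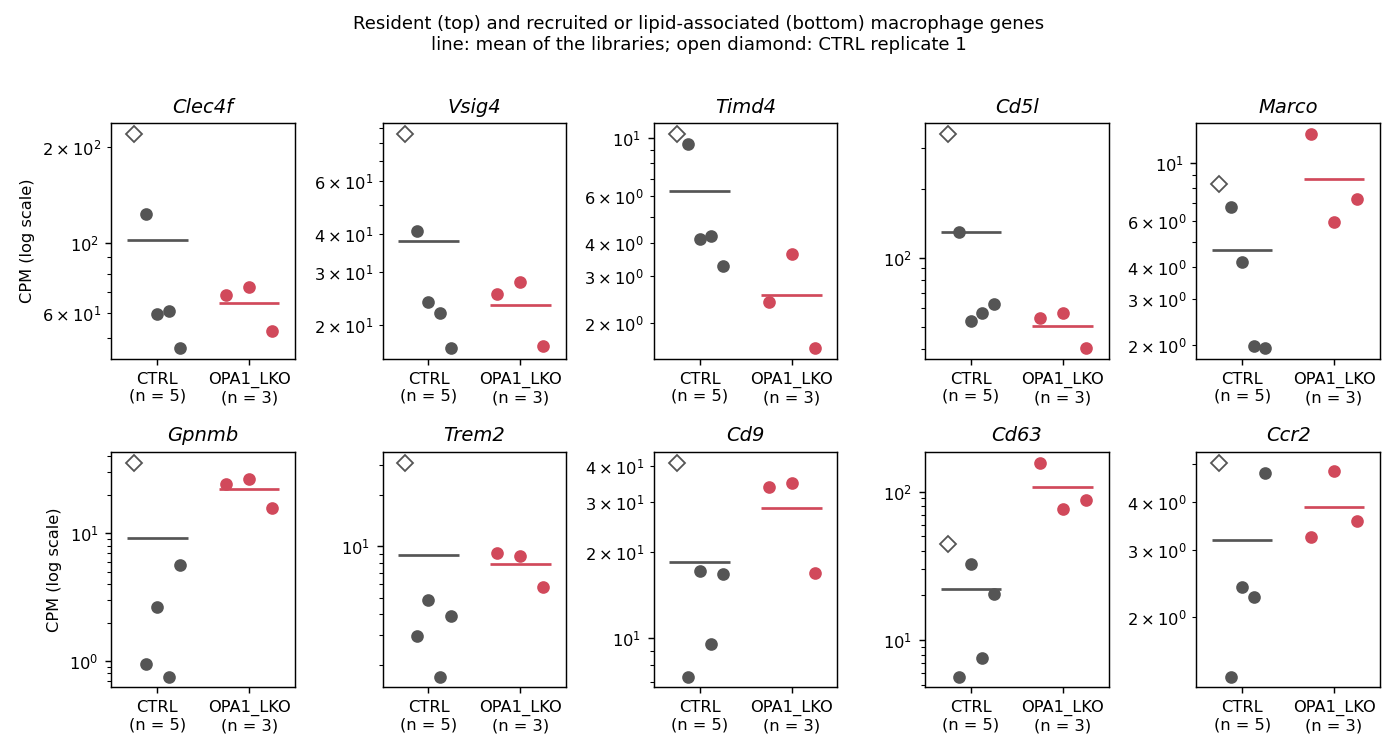
Level of 5 resident genes (top row) and 5 recruited or lipid-associated genes (bottom row) in CPM on a log axis, 1 point for each library, with a line at the group mean and an open diamond for CTRL replicate 1. The diamond is the highest control in all 10 panels, and only Cd63 has all OPA1_LKO points above all CTRL points.

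Of the 13 general macrophage genes 0 passed the edgeR test over all 8 libraries, 0 were under an unadjusted p of 0.05, and DESeq2 called 0. C1qa, C1qb and C1qc encode the recognition subunit of classical complement, which in the liver is made by macrophages. C1qa stood at 182 CPM in CTRL replicate 1, at 37.5 to 64.3 CPM in the other controls and at 58.1 to 70.9 CPM in OPA1_LKO, and the sum of the 3 genes at 493 CPM, at 92.2 to 174 CPM and at 128 to 196 CPM. Csf1r, the receptor for CSF1 and IL34 on which macrophages depend, was at 83.0 CPM in CTRL replicate 1, 20.8 to 40.9 CPM in the other controls and 28.8 to 41.6 CPM in OPA1_LKO. Cd68, a lysosomal glycoprotein of phagocytes, showed a wider gap, with 76.7 CPM in that library, 5.01 to 14.4 CPM in the other controls and 12.9 to 19.4 CPM in OPA1_LKO. In these genes the OPA1_LKO libraries overlapped the controls other than replicate 1.

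In the other general genes the groups overlapped as well. Tyrobp, the signalling adaptor of TREM2, was at 106 CPM in CTRL replicate 1, 11.9 to 22.5 CPM in the other controls and 17.5 to 30.6 CPM in OPA1_LKO. The Fc receptor gamma chain Fcer1g, the PU.1 gene Spi1, the scavenger receptor Msr1, the F4/80 gene Adgre1, the protease Ctss and the lysozyme gene Lyz2 had log2 fold changes between -0.67 and 0.02. Lyz2 shares sequence with Lyz1, and how reads were divided between them is uncertain. Mrc1, the mannose receptor, which sinusoidal endothelium also carries, barely varied, from 24.9 to 33.4 CPM in CTRL and 25.1 to 38.3 CPM in OPA1_LKO. Of the 13, 11 had a negative fold change over all libraries, 2 on the TPM scale and 1 without CTRL replicate 1, where again none was called.

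The genes of recruited cells did not pass over all libraries either, with 0 of 7 called by edgeR, 0 under an unadjusted p of 0.05 and 0 called by DESeq2. Ccr2, the receptor that brings monocytes out of the marrow, was at 5.05, 1.40, 2.40, 2.26 and 4.75 CPM in CTRL and 3.23, 4.81 and 3.55 CPM in OPA1_LKO. The OPA1_LKO values sat inside the CTRL range, at a log2 fold change of 0.28 ± 0.40 (SE). Ccl2, the ligand of that receptor, was at 1.12 to 5.10 CPM in CTRL and 1.01 to 1.62 CPM in OPA1_LKO. Ly6c2, a surface marker of inflammatory monocytes that shares reads with Ly6c1, was at 0.549 to 2.02 CPM in CTRL and 0.237 to 1.03 CPM in OPA1_LKO, with 4 to 38 counts a library. Itgam, the integrin chain CD11b, was at 0.412 to 3.24 CPM in CTRL and 1.36 to 2.29 CPM in OPA1_LKO, and Clec7a, the glucan receptor dectin-1, at 7.98 to 36.1 CPM and 8.64 to 12.7 CPM.

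Itgax and Cx3cr1 were higher in all 3 OPA1_LKO libraries than in CTRL replicates 2 to 5, as were 13.2% of all genes. CTRL replicate 1 was above all OPA1_LKO libraries for Itgax and above OPA1_LKO replicate 1 alone for Cx3cr1. For Cx3cr1, CTRL replicate 3 was nearly level with OPA1_LKO replicate 1. Itgax, the CD11c integrin chain of dendritic cells and of fat-laden macrophages, stood at 9.19, 0.787, 4.19, 1.30 and 2.81 CPM in CTRL and 6.33, 6.52 and 7.46 CPM in OPA1_LKO. Its log2 fold change was 0.88 ± 0.60 (SE), adjusted p = 0.412 by edgeR, and 1.56 without CTRL replicate 1 (adjusted p = 0.0465). Cx3cr1, the fractalkine receptor, was at 5.58, 1.12, 4.64, 0.686 and 2.86 CPM in CTRL and 4.76, 7.20 and 6.04 CPM in OPA1_LKO, at 1.35 without that library (adjusted p = 0.105).

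Of the 8 lipid-associated and lysosomal genes, the tested calls were Cd63 and Lgals1, in opposite directions. Gpnmb, a glycoprotein of phagosomes and lysosomes, had the widest range of any member as a ratio of the highest to the lowest library. It stood at 35.7, 0.955, 2.63, 0.755 and 5.61 CPM in the CTRL libraries and 24.2, 26.8 and 15.7 CPM in those of OPA1_LKO. Replicate 1 was above all OPA1_LKO libraries, while the other 4 controls were well below them. The log2 fold change over all libraries was 1.27 ± 0.97 (SE), adjusted p = 0.467 by edgeR, and without CTRL replicate 1 it was 3.15 ± 0.53 (SE), adjusted p = 0.0065, or 22.2 ± 5.76 CPM (SD, n = 3) against 2.49 ± 2.25 CPM (SD, n = 4).

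Trem2, a lipid-sensing receptor that signals through TYROBP, was at 31.1, 2.98, 4.81, 1.71 and 3.90 CPM in CTRL and 9.19, 8.82 and 5.74 CPM in OPA1_LKO. Again replicate 1 was the highest of all libraries and the other controls were the lowest 4. The fold change switched sign with that library, from -0.17 ± 0.81 (SE) to 1.24 ± 0.32 (SE) without it (adjusted p = 0.920 and 0.0338, edgeR). The main Trem2 transcript held 87.5% of its TPM. Cd9, a tetraspanin of the plasma membrane, was at 41.2, 7.30, 17.2, 9.53 and 16.8 CPM in CTRL and 33.8, 35 and 16.9 CPM in OPA1_LKO, where OPA1_LKO replicate 3 was level with 2 of the controls. Its log2 fold change rose from 0.63 to 1.17 without CTRL replicate 1 (adjusted p = 0.468 and 0.0467, edgeR).

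The other lysosomal members did not separate. Lgals3, which encodes galectin-3, was at 129 CPM in CTRL replicate 1, 8.37 to 31.3 CPM in the other controls and 25.5 to 36.3 CPM in OPA1_LKO. Ctsd and Ctsb, the aspartyl and cysteine proteases cathepsin D and B, had log2 fold changes of -0.20 ± 0.23 and -0.20 ± 0.21 (SE). Ctsb ranged from 434 to 674 CPM in CTRL and from 344 to 531 CPM in OPA1_LKO. In both proteases the OPA1_LKO values overlapped those of the controls.

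Without CTRL replicate 1, a choice made after its values were known, 5 members were called higher (Gpnmb, Cd63, Trem2, Itgax and Cd9) and 1 lower (Lgals1). That fit called 6.65% of all genes higher and 5.59% lower. In it 4 of 8 lipid-associated genes and 1 of 7 recruited genes rose, and 0 of 7 resident and 0 of 13 general genes did by edgeR, with 2 and 1 under an unadjusted p of 0.05. Cx3cr1, Itgax, Trem2, Gpnmb and Cd63 were then separated with every OPA1_LKO library above every remaining control, as were 13.2% of all genes. The members' share was near that background. Leaving out CTRL replicate 3 as well, whose bile duct genes Krt19 and Epcam were high, added Cx3cr1 and Lgals3 to the rises. This fit called 10.9% of all genes higher and 10.4% lower. The bile duct genes Sox9, Krt7 and Spp1 in CTRL replicate 3 lay within the range of the other controls. DESeq2 gave no adjusted p for Gpnmb and Trem2 over the 8 libraries.

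Because the summed level of the macrophage genes differed between libraries, each member was also expressed per 100 CPM of C1qa, C1qb and C1qc together. This is a description without a test. CTRL replicate 1 exceeded the median of the other controls by unlike ratios, 1.15 for Mrc1, 3.65 for C1qa, 6.78 for Cd68 and 19.9 for Gpnmb. The division therefore does not level all macrophage genes. On this scale Csf1r was level, at 16.8 to 23.5 in CTRL and 20.9 to 22.6 in OPA1_LKO, as was Tyrobp, at 12.4 to 21.6 and 13.7 to 15.6. Of the 32 other members, Timd4, Cd5l and Folr2 were lower in every OPA1_LKO library than in any control, and Itgax, Gpnmb and Cd63 were higher in every one. Of all genes 4.25% were separated as higher on this scale and 0.527% as lower. The C1q sum was 493 CPM in CTRL replicate 1 and 92.2 to 174 CPM in the other controls. Dividing by it sets most genes low in that library, so few could lie lower still in OPA1_LKO. Without CTRL replicate 1, 13.9% of all genes were separated as lower, so 0.527% is a poor background for Timd4, Cd5l and Folr2.

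Timd4 was at 2.09, 5.43, 2.90, 4.61 and 2.88 per 100 CPM of C1q in CTRL and at 1.44, 1.86 and 1.25 in OPA1_LKO. Cd5l was at 70.2, 74.4, 36.9, 61.9 and 55.0 in CTRL and 32.4, 29.1 and 31.5 in OPA1_LKO, and Folr2 at 4.93 to 8.40 and 3.15 to 4.61. For Cd5l the 3 OPA1_LKO libraries were nearly equal, and CTRL replicate 3 came nearest to them. Clec4f and Vsig4 overlapped narrowly, with Clec4f at 41.0 to 70.8 in CTRL and 36.9 to 41.4 in OPA1_LKO, and Vsig4 at 14.8 to 23.9 and 13.4 to 15.1. In each gene only CTRL replicate 5 lay below an OPA1_LKO library, replicate 3 for Clec4f and replicate 1 for Vsig4. With that control left out both genes were necessarily separated as lower, beside 0.570% of all genes. It was singled out from these same values, so its omission adds no support.

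Gpnmb was at 7.25, 0.549, 1.84, 0.818 and 4.95 per 100 CPM of C1q in CTRL and at 14.5, 13.6 and 12.3 in OPA1_LKO. Cd63 was at 3.26 to 22.8 in CTRL and 39.1 to 94.0 in OPA1_LKO, and Itgax at 0.452 to 2.94 and 3.32 to 5.84. CTRL replicate 1, the highest library for Gpnmb in CPM, was below all 3 OPA1_LKO libraries per C1q. The separation depends in part on the denominator. With Csf1r in place of C1q the separated members were Itgax, Gpnmb and Cd63 above and Timd4, Cd5l and Lgals1 below, and of all genes 4.93% were above and 0.713% below. With Adgre1, a scarce gene of 49 to 142 counts a library, 7 were above and 2, Timd4 and Lgals1, below, beside 11.9% and 0.627% of all genes. Csf1r and Adgre1 were also highest in CTRL replicate 1, which sets other genes low there and keeps the shares below small. Timd4, Itgax, Gpnmb and Cd63 were separated under C1q, Csf1r and Adgre1 alike. Leaving out a library cannot undo a full separation, so such omissions do not test it. Without CTRL replicate 1 there were 5 of 32 above and 5 of 32 below, beside 4.44% and 13.9% of all genes, so that the share below was then near the background. Whole liver cannot tell fewer cells of a type from less RNA per cell.

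**Figure D4:**
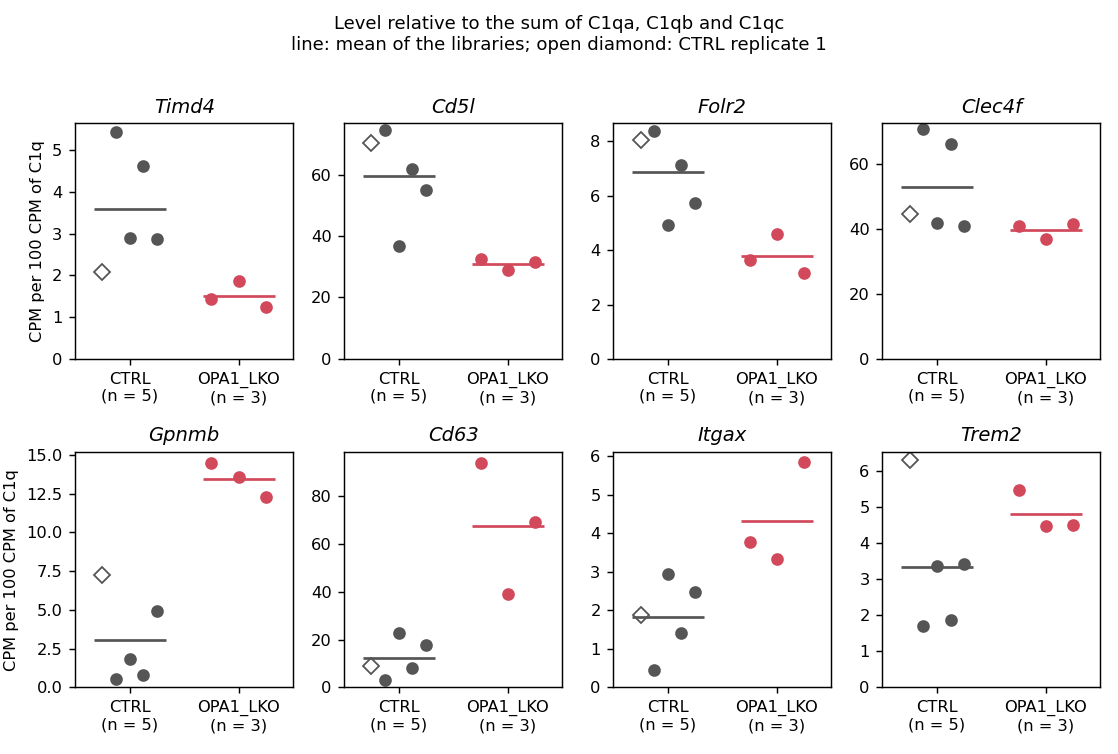
Level of 8 members per 100 CPM of C1qa, C1qb and C1qc together (vertical axes from 0), 1 point for each library, with a line at the group mean and an open diamond for CTRL replicate 1. Timd4, Cd5l and Folr2 lie below the controls in all 3 OPA1_LKO libraries, Gpnmb, Cd63 and Itgax above them, and Clec4f and Trem2 overlap.

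Genes around these markers were read from 8 lists of macrophage growth factors, chemokines, receptors and further markers, of which 121 genes were tested. Over all libraries edgeR called 5 higher and 0 lower in OPA1_LKO, with 17 under an unadjusted p of 0.05, and DESeq2 called 6 and 4. Of all genes edgeR called 3.34% higher and 2.69% lower and DESeq2 5.99% and 6.06%, so 5 of 121 is near the background. Gdf2 (BMP9, a stellate cell factor that sustains Kupffer cell identity) was at 11.0 to 14.6 CPM in CTRL and 19.9, 29.5 and 17.0 CPM in OPA1_LKO. Spp1, which encodes osteopontin, was at 13.9 to 33.1 CPM in CTRL and 164, 176 and 122 CPM in OPA1_LKO, for a log2 difference of 2.76 ± 0.25 (SE). Both sets of libraries were clear of each other. Spp1 held in each fit that left out 1 library.

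Fabp5, a fatty acid carrier of lipid-laden macrophages, was at 3.82 to 9.51 CPM in CTRL and 35.3, 19.3 and 14.3 CPM in OPA1_LKO, and Ctsl, the protease cathepsin L, at 342 to 627 and 1503, 948 and 995 CPM. Mfge8, the bridge between dying cells and phagocytes, was at 7.59 to 14.2 and 24.4, 31.9 and 16.5 CPM. Each of the 3 was higher in all OPA1_LKO libraries than in any control. Without OPA1_LKO replicate 1 the calls of Fabp5, Ctsl, Mfge8 and Gdf2 were lost (adjusted p = 0.0923, 0.0805, 0.103 and 0.110, edgeR). Mfge8 was also lost without CTRL replicates 2 or 4 or OPA1_LKO replicate 2 (adjusted p = 0.0574, 0.0540 and 0.0829, edgeR). Gdf2 was lost in every other single-library omission but those of CTRL replicate 1 and OPA1_LKO replicate 3, at up to 0.113.

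By list, 3 of 24 further lipid-associated genes rose (Spp1, Fabp5 and Ctsl), as did 1 of 13 growth factor and niche genes (Gdf2) and 1 of 9 efferocytosis genes (Mfge8). Of the 24, 10 had a positive and 14 a negative log2 fold change, with a median of -0.080. In these lists 7, 2 and 2 genes were under an unadjusted p of 0.05 by edgeR. DESeq2 called 3, 2 and 1 higher, and Lipa in the first list and Colec12 in the last lower. None passed the edgeR test among 19 Kupffer identity genes, 13 chemokines, 8 monocyte genes, 18 Fc receptor, complement receptor and oxidase genes, or 17 innate sensing and cytokine genes, with 1, 2, 1, 0 and 2 under an unadjusted p of 0.05 and 0, 1, 0, 0 and 1 called by DESeq2. Without CTRL replicate 1 edgeR called 14 higher and 0 lower of 120, with 32 under an unadjusted p of 0.05, in a fit that called 6.65% of all genes higher and 5.59% lower and had 4221 of 13902 under that unadjusted p. One of the added genes, Lpl, the lipase that frees fatty acids from lipoproteins, was chosen after its values were seen. It was at 179 CPM in CTRL replicate 1, 25.3 to 42.8 CPM in the other controls and 106, 100 and 149 CPM in OPA1_LKO.

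Genes of bile duct cells, which carry bile out of the liver, were also read, since they can share markers with macrophages. Of the 9 tested 4 were higher in OPA1_LKO and 0 lower by edgeR and DESeq2 alike, with 4 under an unadjusted p of 0.05, led by Spp1, which is in both lists, Sox9 and Krt7. Over all genes edgeR called 3.34% higher and DESeq2 5.99%, and 3337 of 14036 were under that unadjusted p by edgeR. The summed level of the list was 41.9 to 91.9 CPM in CTRL and 183 to 244 CPM in OPA1_LKO. Krt7 was at 0.343 to 1.49 CPM and 2.86 to 4.41 CPM. Krt19 and Epcam, chosen after their values were seen, were at 22.3 and 16.8 CPM in CTRL replicate 3 and at most 1.03 CPM in the other controls. In OPA1_LKO they lay between these, Krt19 at 2.77, 5.67 and 2.13 CPM and Epcam at 7.25, 10.5 and 5.15 CPM. The part of bile duct RNA in the levels of Cd63, Cd9, Gpnmb, Fabp5 and Spp1 was not tested. Sox9 lost its call without OPA1_LKO replicate 3 (adjusted p = 0.0837) and Krt7 without CTRL replicate 2 or any 1 OPA1_LKO library (adjusted p = 0.0506 to 0.0740, edgeR).

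Stellate cell genes had 11 of 11 positive fold changes with 0 called by edgeR, 5 under an unadjusted p of 0.05 and 1 called by DESeq2, at a summed 365 to 403 CPM in CTRL and 437 to 838 CPM in OPA1_LKO. Among all 14036 genes 6581 were positive and 3337 under that unadjusted p by edgeR. The shares called higher were 3.34% by edgeR and 5.99% by DESeq2. Neutrophil genes summed to 23.3 CPM in CTRL replicate 1, 5.14 to 7.77 CPM in the other controls and 5.53 to 9.10 CPM in OPA1_LKO, and their defining gene Ly6g had 3 counts or fewer in every library. Of 3 neutrophil genes tested 0 had a positive fold change, and edgeR and DESeq2 called 0. Genes of T and natural killer cells summed to 13.9 CPM in CTRL replicate 1, 4.21 to 9.34 CPM in the other controls and 10.7 to 12.8 CPM in OPA1_LKO. Of 10 tested 9 were positive, with 0 called by edgeR or DESeq2 and 1 under an unadjusted p of 0.05 by edgeR. Positive fold changes were also seen in 9 of 12 sinusoidal endothelial, 6 of 7 B and plasma cell, 8 of 9 dendritic cell and 6 of 10 hepatocyte genes. Of 12 sinusoidal endothelial genes edgeR and DESeq2 called 0, with 1 under an unadjusted p of 0.05, and their sum was 231 to 359 CPM in CTRL and 226 to 451 CPM in OPA1_LKO. Of 7 B and plasma cell genes both tools called 0, with 2 under an unadjusted p of 0.05, and their sum was 7.48 to 19.2 CPM and 10.3 to 21.9 CPM. Dendritic cell genes, of which 0 of 9 were called by edgeR or DESeq2 and 2 had an unadjusted p under 0.05, summed to 116 to 165 CPM in CTRL and 131 to 165 CPM in OPA1_LKO. Hepatocyte genes summed lowest in CTRL replicate 1, at 67138 CPM where the rest had 81175 to 123328 CPM. By edgeR 1 of 10, the amino acid enzyme gene Tat, was higher in OPA1_LKO, at 1096, 1446 and 1673 CPM against 247 to 575 CPM. DESeq2 called 2 higher, Tat and Ass1, and 3 were under an unadjusted p of 0.05 by edgeR. The part of these cell types in the macrophage values was not tested.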

How the data were processed

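Stranded poly(A) libraries of whole liver, 5 CTRL and 3 OPA1_LKO, were analysed. The authors deposited expected counts per gene, estimated and not normalised, and TPM per gene and transcript, scaled for length. Per the submitters' processing notes STAR, RSEM, StringTie, MultiQC and the build mm10 were used, without versions; RSEM divides shared reads by estimation, so close gene copies are uncertain. Expected counts were rounded, filtered with filterByExpr (minimum count 10, total 15), scaled by TMM and compared with edgeR 4.0.16 (quasi-likelihood test, R 4.3.3), with Benjamini-Hochberg adjustment over 14036 genes and a threshold of 0.05. CPM use the TMM-scaled library sizes. The procedure was tested on simulated data. Alternatives were upper-quartile factors, DESeq2 1.42.0, no filter, limma 3.58.1 on log2(TPM + 1), a replicate block and each library left out. Members and lists were chosen with earlier results of these data known. Named were all members and, of other lists, called genes (up to 4 a list, or 3 for other cell types).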

Additional observations from a re-analysis of the deposited data

Results flagged for a closer look

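In CTRL, 16 of 35 members had 1 library far from the others by Dixon's ratio, above 0.710 for 5 samples, and in all 16 it was CTRL replicate 1, on the high side. Chance alone gives this in about 1 in 20 genes, and in these libraries 9.43% of all genes tested had such a library, and in 4.31% of all genes it was CTRL replicate 1, on the high side. The members share that library, so the 16 are not independent.

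Among the resident genes the high values were those of Cd5l 346 CPM (52.7 to 129 CPM elsewhere) and Folr2 39.7 CPM (6.53 to 14.6 CPM elsewhere). In the complement genes they were C1qa 182 CPM (37.5 to 64.3 CPM elsewhere), C1qb 152 CPM (28 to 56.2 CPM elsewhere) and C1qc 158 CPM (26.8 to 53.5 CPM elsewhere). The other general macrophage genes were Cd68 76.7 CPM (5.01 to 14.4 CPM elsewhere), Lyz2 188 CPM (28.4 to 51.5 CPM elsewhere), Spi1 35.4 CPM (5.01 to 11.7 CPM elsewhere) and Tyrobp 106 CPM (11.9 to 22.5 CPM elsewhere). To these came Fcer1g 58.4 CPM (8.85 to 22.7 CPM elsewhere) and Ctss 81.1 CPM (24.6 to 36.4 CPM elsewhere). The recruited-cell genes were Ly6c2 2.02 CPM (0.549 to 0.917 CPM elsewhere) and Clec7a 36.1 CPM (7.98 to 11.4 CPM elsewhere), and the lipid-associated genes Trem2 31.1 CPM (1.71 to 4.81 CPM elsewhere), Gpnmb 35.7 CPM (0.755 to 5.61 CPM elsewhere) and Lgals3 129 CPM (8.37 to 31.3 CPM elsewhere). Each range is over the other 4 CTRL libraries.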

How the results depend on the processing

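Of 488 values of the members' fold changes under 14 alternatives, 415 kept direction and side of the threshold, 10 lost and 9 gained the call, and 54 turned sign, in 18 members and 14 of them without CTRL replicate 1. The pair CTRL replicates 1 and 3 was left out, and the C1q ratios were chosen, after the data were seen. Genes changed numbered 846, and 1692 with DESeq2, 2919 without both CTRL replicates, and 198 to 1701 without single libraries. Of the members 2 changed, and 1 with upper-quartile factors, 8 without both CTRL replicates and 0 to 6 without single libraries, within which recruited genes were 0, then 2 without both and 0 to 1, and lipid-associated genes 2, then 1 with upper-quartile factors, 6 without both and 0 to 5. DESeq2 called 1 resident gene. Of the other macrophage genes 5 changed, and 10 with DESeq2, 3 with limma, 22 without both and 1 to 14 without single libraries. Separated members per C1q were 6, and 6 to 10 without single libraries, where 4.33% to 8.97% of all genes lay above and 0.563% to 13.9% below, the last without CTRL replicate 1. Such omissions can only keep or add separated genes. The 2 CTRL replicates left out lie nearest OPA1_LKO on the first principal component, so higher counts without them add no support.

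With the replicate number as a block, 367 genes changed, 1 resident gene (Timd4, lower), 1 lipid-associated gene (Lgals1) and 3 other macrophage genes. Deviations of same-numbered libraries correlated at 0.072, 0.0537 and 0.175, so the numbers are not taken as pairs, although each library correlated best with its own number. Under the block Cd163 was at 0.16 and Ctss at -0.18.

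Signs turned on the log2(TPM + 1) scale to 0.054 for Cd163, 0.086 for Csf1r, 0.21 for C1qa, 0.081 for C1qb, 0.0067 for C1qc, 0.30 for Cd68, 0.12 for Lyz2, 0.075 for Tyrobp, 0.082 for Fcer1g, 0.059 for Msr1, 0.0055 for Clec7a, 0.62 for Trem2 and 0.40 for Lgals3. Without CTRL replicates 1 and 3 they turned to 0.27 for Csf1r, 0.47 for C1qa, 0.35 for C1qb, 0.28 for C1qc, 0.79 for Cd68, 0.42 for Lyz2, 0.24 for Spi1, 0.56 for Tyrobp, 0.50 for Fcer1g, 0.11 for Ly6c2, 0.35 for Clec7a, 1.46 for Trem2 and 1.20 for Lgals3. Without single libraries the ranges were -0.45 to 0.11 for Cd163, -0.36 to 0.22 for Csf1r, -0.37 to 0.40 for C1qa, -0.58 to 0.30 for C1qb, -0.63 to 0.25 for C1qc, -0.72 to 0.71 for Cd68, -0.82 to 0.53 for Lyz2, -0.87 to 0.042 for Spi1, -0.77 to 0.43 for Tyrobp, -0.57 to 0.26 for Fcer1g, -0.22 to 0.43 for Ctss, -0.58 to 0.052 for Msr1, -0.13 to 0.19 for Mrc1, -0.73 to 0.053 for Ly6c2, -0.55 to 0.25 for Clec7a, -0.42 to 1.24 for Trem2, -0.68 to 0.75 for Lgals3 and -0.30 to 0.0047 for Ctsb. The cause was not tested. Recruited genes of 4 to 100 counts a library, such as Ly6c2, are limited by depth.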
